A study of Mus musculus with 65 samples.

Results

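The genes described here are 42 genes of the retinal synapse, chosen as a written list of symbols and all found, each under 1 Ensembl identifier, among the 50686 genes of the count table. By role they fall into 14 genes of the synaptic vesicle and its fusion machinery (Syp, Syn1, Syn2, Snap25, Stx1a, Stx3, Vamp2, Syt1, Sv2a, Sv2b, Cplx1, Cplx2, Cplx3 and Cplx4), 8 of the active zone and ribbon (Bsn, Pclo, Rims1, Rims2, Erc2, Ctbp2, Cacna1f and Cabp4), 7 postsynaptic scaffolds (Dlg4, Dlg2, Shank1, Shank2, Shank3, Homer1 and Gphn), 8 receptor subunits (Gria1, Gria2, Gria3, Gria4, Grin1, Grin2a, Grin2b and Glra1) and 5 adhesion molecules (Nlgn1, Nlgn2, Nlgn3, Nrxn2 and Nrxn3). They were measured by RNA sequencing of whole retina from 65 adult wild type C57BL/6J mice in 16 groups. The 5 CD mice ate control diet, and 1 of them is labelled 2M where the others carry a replicate number. DEP2, DEP5, DEP7, DEP10, DEP14 and DEP21 (4 mice each, DEP5 3) ate PLX5622, an inhibitor of the microglial survival receptor CSF1R, for the number of days in the name. REPOP3, REPOP5, REPOP7, REPOP10, REPOP14 and REPOP21 (4 mice each, REPOP7 6) had returned to control diet for that number of days, so that microglia could come back, and the 4 REPOP60 mice are labelled 2 months of repopulation. The 3 LPSCD mice were on control diet and received lipopolysaccharide (LPS), a bacterial product that activates innate immunity. The 4 LPSREPOP mice are labelled PLX5622 with LPS and are described by the study as LPS-challenged repopulated retina, with no length of repopulation in the labels. PLX5622 acts wherever CSF1R is used and not in the retina alone, and LPS was given systemically. The question asked of these genes was whether lasting loss of microglia, their return, or LPS moved the transcripts of the synapse.

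As background, a vesicle is held and fused by the SNARE proteins SNAP-25, syntaxin and synaptobrevin (Vamp2), with synaptotagmin as calcium sensor and complexins as clamps. Photoreceptors and bipolar cells release glutamate without pause at ribbon synapses, which tether vesicles to a plate built from RIBEYE, a product of Ctbp2, and use syntaxin 3, the complexins of Cplx3 and Cplx4, and the L-type calcium channel of Cacna1f. Amacrine cells use conventional synapses with syntaxin 1 and complexins 1 and 2, and the postsynaptic side is ordered by scaffolds of the PSD-95, Shank, Homer and gephyrin families. Microglia contact synapses and remove some of them during development.

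Library depth ran from 5106429 to 8760443 gene-assigned reads (median 7944665), and the shallowest library was REPOP21 replicate 1. The titles of the mice end in RE (39 mice) or re (26 mice), with no explanation in the labels. The first principal component of 12346 genes held 55.9% of the variance and separated the suffixes without overlap. All LPSCD, LPSREPOP and REPOP60 mice were re and all DEP5 mice RE, while CD held 3 RE and 2 re mice, so the suffix stood as a covariate in each fit that held both. Against CD, the differences of LPSCD and of REPOP60 therefore rested on the 2 re CD mice (replicates 1 and 2M), and that of DEP5 on the 3 RE ones. Summed microglial markers (20 genes) were 73.35 to 94.998 CPM (counts scaled to library size) in CD and 22.8 to 32.3 in the 19 mice of DEP5 to DEP21, where 17 of the 20 markers fell and C1qb and Siglech were at 0 in every mouse. Markers of rods, cones, bipolar, amacrine, ganglion and Müller cells were present in every group. In bulk retina, fewer cells of a type and less RNA per cell cannot be told apart.

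The synaptic genes were well measured. Together they took 1.21% to 1.43% of the reads of a library. Compared per length, as the deposited FPKM of the 5 CD mice, the members covered a wide range. Snap25 led at 588 ± 59.4 FPKM (SD, n = 5), followed by Vamp2, the synaptobrevin of the vesicle, at 578 ± 55.2. Dlg4, which encodes PSD-95 and in retina is abundant in photoreceptor terminals, stood at 481 ± 40.5, and Syp (synaptophysin) at 428 ± 24.7. These 4 overlapped with their neighbours in the order, and all 4 stood above the next, Stx3, at 288 ± 34.6. Stx3, the syntaxin of ribbon synapses, was far above Stx1a, the syntaxin of conventional synapses, at 4.38 ± 1.17. Among complexins, Cplx4 had 254 ± 20.6, Cplx3 85.1 ± 6.56, Cplx1 59.1 ± 3.51 and Cplx2 54.5 ± 3.77 FPKM. Of the ribbon genes, Cacna1f had 132 ± 11.1, Cabp4 (a calcium sensor of that channel) 74.3 ± 3.27 and Ctbp2 69.3 ± 20.5 FPKM, a gene-level value that does not separate RIBEYE from the transcriptional co-repressor made by the same gene. The lowest members were the NMDA receptor subunits Grin2b at 1.90 ± 0.27 and Grin2a at 1.75 ± 0.24 FPKM, while their partner subunit Grin1 had 31.2 ± 7.37. Within 1 suffix the spread was small. The coefficient of variation over the 19 re mice without LPS was 3.15% to 10.9% (median 5.50%), and over the 39 RE mice 4.08% to 19.4% (median 8.87%), all groups pooled.

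No synaptic gene passed the test after lasting loss of microglia. The mean of DEP5 to DEP21 (19 mice) was compared with CD (5 mice) by edgeR's quasi-likelihood test over 26155 genes, with a gene called at a false discovery rate (FDR) under 0.05. Of the 42 members 0 were called, against a background of 0.206% of all genes, and DESeq2 also called 0. An unadjusted p under 0.05 was found for 2 members, beside 5.95% of all genes. The median member difference was 0.0033 on the log2 scale, and 21 of the 42 were positive. The differences ran from −0.16 (Shank3) to 0.12 (Cplx4).

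The intervals say how much room is left for a change. All 42 of the 95% confidence intervals, each for its own gene, lay between −0.5 and 0.5. The lowest bound was −0.29 for Shank3, a fall of 18.4% (−18.4%), and the highest 0.32 for Glra1, the glycine receptor subunit, a rise of 25.2%. The median interval reached 0.12 to either side of its estimate. For Snap25 the difference was −0.0059 (−0.09 to 0.08), for Syp −0.08 (−0.19 to 0.02), for Ctbp2 −0.06 (−0.15 to 0.03) and for Cacna1f −0.03 (−0.12 to 0.07). For the AMPA receptor subunit Gria2 it was 0.03 (−0.07 to 0.14).

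**Figure D1:**
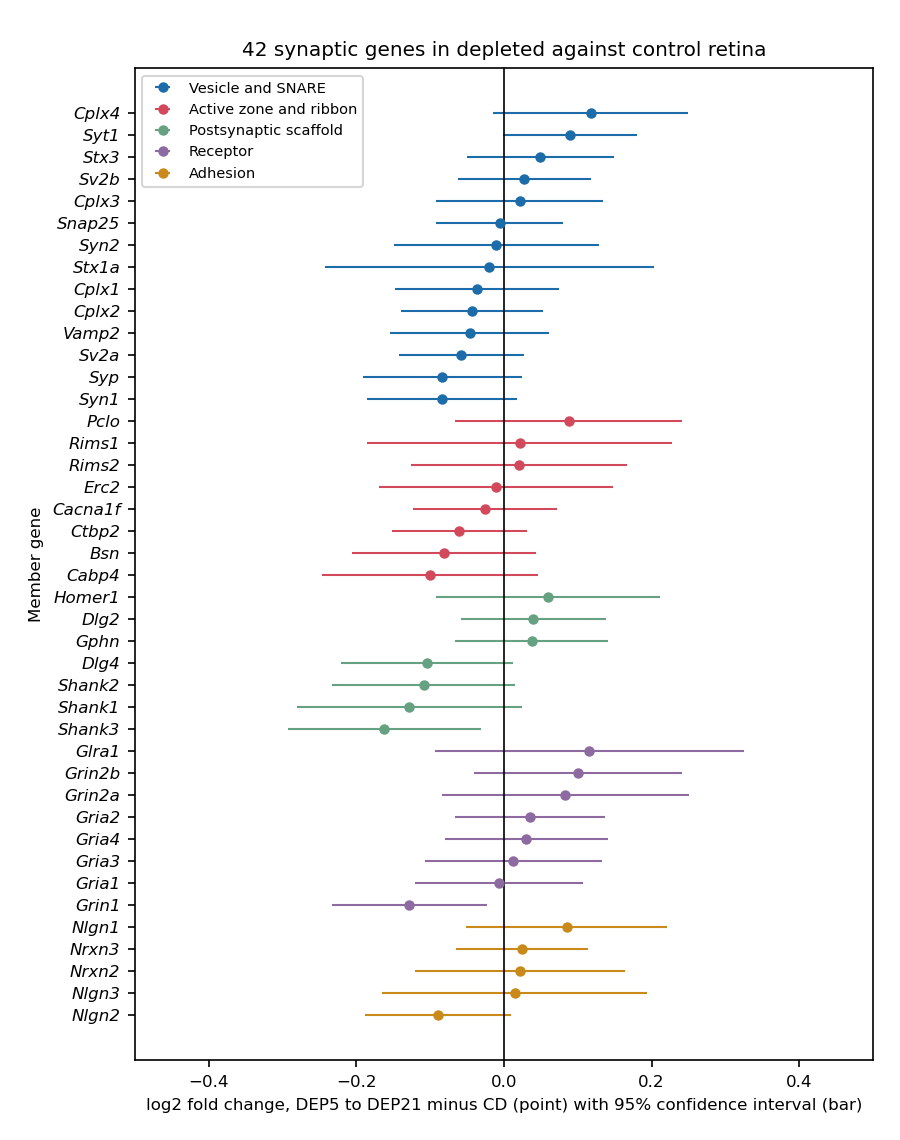
Fitted log2 fold change of each of the 42 members, mean of DEP5 to DEP21 (19 mice) minus CD (5 mice), on the horizontal axis, with bars for the 95% confidence interval and colours for the role. Estimates lie between −0.16 and 0.12, and of the intervals that leave 0 out, those of Shank3 and Grin1, neither passed the threshold after adjustment.

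The 3 members with the smallest FDR show the size of the spread. Shank3, a scaffold of excitatory synapses, had 36.4, 36.4 and 39.3 CPM in the RE mice and 55.3 and 49.8 in the re mice of CD. In depleted retina it ran from 29.2 through a median of 33.5 to 42.5 CPM in 15 RE mice, and from 42.9 to 48.5 in 4 re mice. Within RE the groups overlapped, and the 4 re mice lay below both re controls. The fit gave −0.16 ± 0.06 (SE, FDR = 0.749). Grin1, the obligatory NMDA receptor subunit, had 119, 114 and 122 CPM in RE controls, 154 and 167 in re controls, 99.1 to 128 (median 109) in depleted RE mice and 140 to 148 in depleted re mice. Its fit gave −0.13 ± 0.05 (FDR = 0.758). Syt1, the calcium sensor of fast release, went the other way, from 1315, 1352 and 1288 CPM in RE and 1252 and 1243 in re controls to 1271 to 1577 (median 1452) in depleted RE and 1252 to 1344 in depleted re mice, with 0.09 ± 0.04 (FDR = 0.834). None of the 3 was separated from its controls by more than the spread between mice in both suffixes.

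One reading of the same mice did give a call. With re mice alone (2 CD and 4 depleted mice), Syp fell by 0.18 on the log2 scale (−0.18, FDR = 0.0361), and its estimate over all mice was −0.08. Across the 42 members the depletion difference ran against the base composition of the transcript: Spearman's rho with the share of G and C in the longest annotated transcript was −0.65 over the 42 genes, which share these libraries, and −0.49 over 12318 genes. Libraries differed in the same respect, as described for the suffix further on. The slope of a library's log2 levels on transcript GC was −0.11 to −0.07 per 10% of GC in the 3 RE controls and −0.20 to 0.06 (median −0.16) in the 15 depleted RE mice. Its part in the small differences of Shank3, Grin1 and Syt1 was not tested gene by gene. With offsets that remove the GC trend from each library, 0 members were called as well, beside 0.206% of all genes.

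Taken group by group, the 13 groups of the time course were each set against CD. No member passed in any of them by edgeR, which makes 0 calls in 546 member and group pairs, while DESeq2 called 2 of these pairs (Pclo and Syt1 at REPOP21). The background of all genes called was 0.109% at DEP2, 0.0646% at DEP5, 0.108% at DEP7, 0.096% at DEP10, 0.067% at DEP14 and 0.139% at DEP21. In repopulation it was 0.0629% at REPOP3, 0.0756% at REPOP5, 0.089% at REPOP7, 0.365% at REPOP10, 0.0125% at REPOP14, 1.9% at REPOP21 and 0% at REPOP60. The number of members at an unadjusted p under 0.05 was 0 at DEP14 and REPOP14, 1 at DEP5, REPOP3 and REPOP60, 2 at DEP21, 3 at DEP2, 5 at REPOP5 and REPOP7, 7 at DEP7 and DEP10, 10 at REPOP10 and 11 at REPOP21. The share of all genes at that p was 3.22% to 8.2% in the other groups, 12.2% at REPOP10 and 16.8% at REPOP21.

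REPOP21 came nearest to a call. Pclo, which encodes the active zone scaffold Piccolo, had 480.5, 492.8 and 520.3 CPM in the RE mice of REPOP21 and 397 in its re mouse, against 380, 427 and 382 in RE and 392 and 404 in re controls. The RE mice of REPOP21 all lay above the RE controls, and the re mouse lay between the re controls. The fit gave 0.22 ± 0.06 (FDR = 0.0687). Cplx4, the photoreceptor complexin, had 695, 743 and 788 CPM in RE mice of REPOP21 and 456 in the re mouse, against 576, 668 and 522 in RE and 447 and 463 in re controls (0.22 ± 0.07, FDR = 0.087). Grin1 had 106, 102 and 92.1 in RE and 152 in re (−0.21 ± 0.06, FDR = 0.0849). Without the re mouse of REPOP21, Pclo, Cplx4, Syt1 and Grin1 passed, as did 6.45% of all genes. Pclo also passed without CD replicate 1 (FDR = 0.0459, beside 2.34% of all genes) or CD replicate 2M (FDR = 0.0455, beside 1.95%). At REPOP10, Bsn stood at −0.27 ± 0.07 (FDR = 0.103). Without REPOP10 replicate 1 Bsn passed (−0.34, FDR = 0.03), as did Cplx4 (0.31, FDR = 0.0354) and 3.52% of all genes. Without CD replicate 2M Bsn passed too (−0.31, FDR = 0.0472), as did 0.844% of all genes. The rho of the member differences with transcript GC was −0.71 at REPOP21, −0.64 at REPOP10, −0.19 at REPOP14 and −0.19 at REPOP60, and its part in these values was not tested. With GC-corrected offsets 0 pairs were called, beside 0.206% of all genes at REPOP21 and 0.394% at REPOP10. After 2 months of repopulation the 42 differences from CD had a median of 0.0045, and all 42 intervals lay between −0.5 and 0.5.

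**Figure D2:**
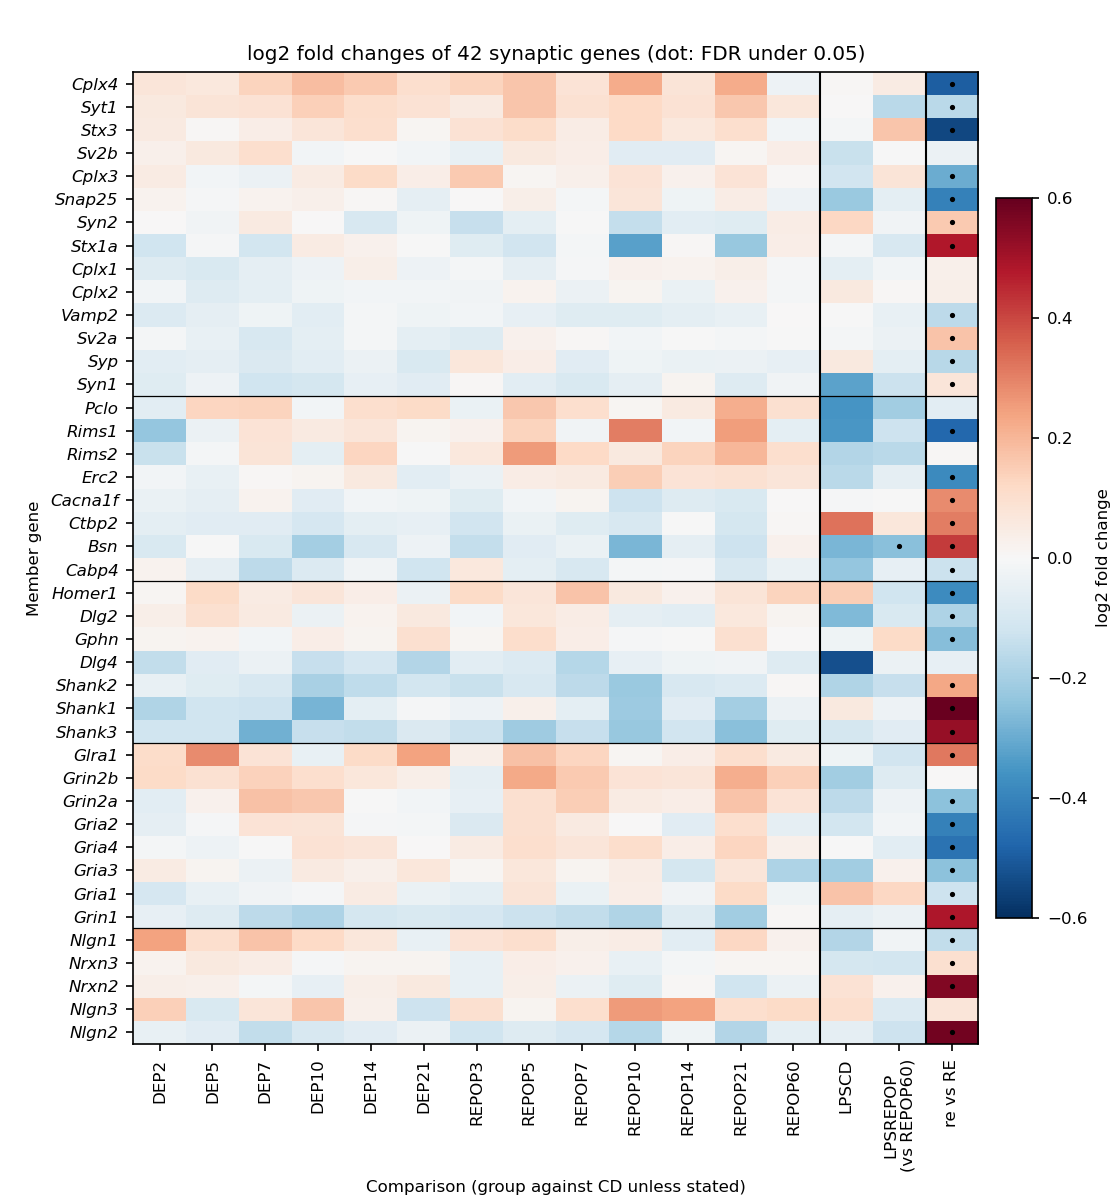
Heat map of fitted log2 fold changes (colour) for the 42 members (rows, by role) in the 13 time course groups and LPSCD against CD, LPSREPOP against REPOP60, and re against RE mice without LPS (columns). A dot marks an FDR under 0.05: there are 34 in the suffix column, 1 (Bsn) in the LPSREPOP column and 0 elsewhere.

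The return of microglia was also read directly. REPOP14 and REPOP21 together were compared with DEP14 and DEP21 (8 mice a side), which held 0 called members by edgeR and by DESeq2, against a background of 0.0971% of 25735 genes. At an unadjusted p under 0.05 there was 1 member, beside 4.51% of all genes. The 3 members of smallest unadjusted p were the adhesion molecule Nlgn3 at 0.23 ± 0.11, Dlg4 at 0.12 ± 0.06 and Grin2a at 0.13 ± 0.08, all at an FDR of 0.963. The lowest estimate was that of Stx1a at −0.13 ± 0.11. The 42 intervals ran from −0.36 (Stx1a) to 0.45 (Nlgn3).

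Group levels were compared within a suffix for 14 genes that stand for each step of the synapse. Among RE mice, which are in 13 of the 16 groups, the means of Snap25 ran from 1555 CPM (DEP21) to 1794 (REPOP10), those of Syp from 1117 (DEP21) to 1257 (REPOP3), those of Syt1 from 1318 (CD) to 1543 (REPOP21) and those of Vamp2 from 1060 (REPOP7) to 1152 (DEP14). The ribbon complexins ran from 308 (DEP5) to 355 (REPOP3) for Cplx3 and from 589 (CD) to 742 (REPOP21) for Cplx4. Bsn, the Bassoon scaffold that anchors the ribbon, ran from 202 (REPOP10) to 254 (CD), Ctbp2 from 237 (REPOP3) to 265 (CD) and Cacna1f from 522 (REPOP10) to 583 (REPOP7). On the postsynaptic side Dlg4 ran from 991 (DEP21) to 1165 (REPOP21), Gria2 from 206 (DEP2) to 246 (REPOP21), Grin1 from 99.9 (REPOP21) to 119 (CD), Glra1 from 15.9 (CD) to 19.998 (DEP21) and Nlgn2, the adhesion molecule of inhibitory synapses, from 216 (REPOP21) to 248 (CD). The highest group mean was 1.09 (Vamp2) to 1.26 (Cplx4) times the lowest for these 14 genes. The 15 groups with re mice include REPOP60 and both LPS groups, and several hold 1 re mouse. There Snap25 ran from 1103 (LPSCD) to 1316 (DEP2), Syp from 957 (DEP7) to 1157 (LPSCD), Syt1 from 1174 (LPSREPOP) to 1344 (DEP10), Vamp2 from 924 (DEP14) to 1025 (REPOP21), Cplx3 from 232 (DEP7) to 277 (REPOP3) and Cplx4 from 435 (REPOP3) to 496 (DEP21). Bsn ran from 269 (LPSCD) to 340 (REPOP3), Ctbp2 from 292 (DEP14) to 377 (LPSCD), Cacna1f from 644 (REPOP21) to 748 (DEP7) and Dlg4 from 769.5 (LPSCD) to 1105 (CD). Gria2 ran from 151 (LPSCD) to 179 (DEP10), Grin1 from 140 (DEP7) to 161 (REPOP60), Glra1 from 17.9 (DEP10) to 23.2 (DEP14) and Nlgn2 from 325 (LPSREPOP) to 371 (REPOP3). An LPS group was at the lowest or highest end for 8 of the 14 genes, and the widest ratio was 1.44, for Dlg4. How often an LPS group is at an end over all genes was not tested, so the count is not read as an LPS difference.

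After LPS the members differed unevenly between mice. The acute-phase score, the mean log2(CPM + 1) of 12 genes such as Lcn2 and Saa3, was 2.16, 2.95 and 3.84 in the 3 LPSCD mice and 2.52, 3.19, 3.12 and 1.92 in the 4 LPSREPOP mice, against 1.58 to 1.89 in the 19 re mice without LPS. LPSCD replicate 1 and LPSREPOP replicate 4 stood nearest to unchallenged mice. In LPSCD against CD, 0 members were called by edgeR and by DESeq2, against a background of 0.0466% of 23606 genes. An unadjusted p under 0.05 was found for 7 members, beside 10.5% of all genes. They were Syn1, Pclo, Dlg2, Bsn, Dlg4 and Snap25 with negative and Ctbp2 with positive estimates. With 3 challenged mice and, through the suffix term, 2 re CD mice behind each difference, the intervals were wide. Of the 42 intervals, 34 lay between −0.5 and 0.5.

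The number of members called in LPSCD against CD changed when LPSCD replicate 1 was left out, and why was not tested. Dlg4 had 1130 CPM in that mouse and 614 and 564 in the other two, against 1051 to 1239 in the 5 CD mice and 940 to 1151 in all re mice without LPS. The first mouse lay among unchallenged mice, and the others lay far below. Over the group Dlg4 stood at −0.53 ± 0.21 (FDR = 0.4), and without replicate 1 at −0.91 ± 0.09 (FDR = 4.317e-05). Ctbp2 had 306, 359 and 465 CPM in LPSCD against 297 and 303 in the re controls and 257 to 276 in the RE controls (0.32 ± 0.14, FDR = 0.432, and 0.45 without replicate 1, FDR = 0.0235). The other two mice lay above every mouse without LPS, whose highest value was 320. Pclo had 370, 282 and 286 CPM in LPSCD against 392 and 404 in re controls (−0.35 ± 0.12, FDR = 0.316, and −0.50 without replicate 1, FDR = 0.00434). Syn1, the vesicle-tethering synapsin 1, had 210, 166 and 191 CPM against 231 and 240 (−0.32 ± 0.11, FDR = 0.311, and −0.41 without replicate 1, FDR = 0.0224). Dlg2, the PSD-93 scaffold, had 196, 159 and 174 CPM against 209 and 214 in re controls (−0.27 ± 0.11, FDR = 0.394, and −0.35 without replicate 1, FDR = 0.0462). Without that mouse Bsn (−0.39, FDR = 0.0232) passed too, which made 6 of 42 called, beside 5.26% of all genes in the same fit. A fit of all 16 groups together, in which other groups supply the estimate of spread, called 5 (Ctbp2, Dlg2, Dlg4, Snap25 and Syn1) with all mice kept, where it called 6.43% of all genes.

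In LPSREPOP against REPOP60, which shares no mouse with the comparison above, Bsn fell, the 1 member called of 42, against a background of 2.92% of 24927 genes called and 1.05% called lower. Bsn had 309, 271, 268 and 267 CPM in LPSREPOP and 341, 319, 322 and 339 in REPOP60. Each LPSREPOP mouse lay below each REPOP60 mouse. The difference was −0.25 ± 0.06 (95% interval −0.36 to −0.14, FDR = 0.00951). The call was lost without REPOP60 replicate 1 (FDR = 0.0738), REPOP60 replicate 4 (FDR = 0.0927) or LPSREPOP replicate 3 (FDR = 0.0741), and in the fit of all 16 groups (FDR = 0.256). Pclo, the relative of Bassoon, had 425, 340, 340 and 371 CPM against 435, 415, 407 and 444. Its first LPSREPOP mouse lay among the controls and the other three below them, with −0.21 ± 0.06 (FDR = 0.0653). Without that mouse Pclo stood at −0.28 (FDR = 0.00702), beside 2.52% of all genes called. Syt1 had 1257, 1143, 1136 and 1159 CPM against 1364, 1331, 1250 and 1290 (−0.16 ± 0.05, FDR = 0.0859), with one mouse inside the range of REPOP60. Stx3 went up, with 706, 690, 656 and 614 CPM against 625.5, 571, 586 and 585 (0.17 ± 0.05, FDR = 0.0897), with one mouse inside the range of REPOP60. In all, 9 of the 42 members had an unadjusted p under 0.05, beside 3478 of the 24927 genes tested. DESeq2 called 2 members (Bsn and Syt1), beside 2.08% of all genes. Dlg4, at 1048, 904, 989 and 1149 CPM, overlapped with REPOP60 at 1069, 1023, 982 and 1107 (−0.04 ± 0.06, FDR = 0.865). The labels give LPSREPOP no length of repopulation, so a difference in that length cannot be told apart from LPS here.

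Both LPS groups against both unchallenged groups (7 against 9 mice, a comparison added after these values were seen) gave 3 called members, all lower, against a background of 4.98% of 25712 genes called and 2.1% called lower. They were Bsn (−0.26 ± 0.06, FDR = 0.00705), Pclo (−0.28 ± 0.07, FDR = 0.0101) and Syn1 (−0.23 ± 0.06, FDR = 0.0164), that is 2 of 8 active zone and ribbon genes and 1 of 14 vesicle genes. With the suffix in the fit, the unchallenged side of these differences rested on the 2 re mice of CD and the 4 of REPOP60. The scaffold Dlg2 just missed the threshold at −0.18 ± 0.05 (FDR = 0.0518) and was called by DESeq2 (FDR = 0.0231), in the fit of all 16 groups (FDR = 0.00998) and in re mice alone (FDR = 0.048). Dlg4 (FDR = 0.125) was called in the fit of all 16 groups too (FDR = 0.0188), so these calls do not set the roles apart. The median over all 42 was −0.07, beside 0.01 over all genes tested. Bsn lost its call without CD replicate 1 (FDR = 0.106), Pclo without CD replicate 2M (FDR = 0.0646) or in the fit of all 16 groups (FDR = 0.105), and Syn1 without CD replicate 1 (FDR = 0.0596), CD replicate 2M (FDR = 0.099) or LPSCD replicate 2 (FDR = 0.0597). Without LPSCD replicate 1, 8 members passed (10.8% of all genes), with Dlg4 at −0.47 (FDR = 2.624e-09) and Ctbp2 at 0.26 (FDR = 0.000895) among them. Bsn also lost its call with no suffix term (−0.16, FDR = 0.152). This comparison shares its mice with the other LPS comparisons.

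Over the 7 LPS mice the member levels were set against the acute-phase score, 42 relations in all. None passed after adjustment. Ctbp2 had the highest Pearson r at 0.91 (exact permutation p = 0.00258, two-sided, adjusted 0.108; Spearman rho 0.89, exact permutation p = 0.0123, adjusted 0.258), and r was 0.75 without the 2 mice farthest from the median score. Nlgn3 had r = 0.89 (exact permutation p = 0.00774, adjusted 0.163; rho 0.86, exact permutation p = 0.0238, adjusted 0.309) and 0.80 without those 2 mice, and Cabp4 r = −0.85 (exact permutation p = 0.0123, adjusted 0.172; rho −0.75, exact permutation p = 0.0663, adjusted 0.309) and −0.54 without them. Dlg4 had r = −0.79 (exact permutation p = 0.0327, adjusted 0.263; rho −0.89, exact permutation p = 0.0123, adjusted 0.258), and −0.51 without those 2 mice. Snap25 had r = −0.83 (exact permutation p = 0.0246, adjusted 0.258; rho −0.82, exact permutation p = 0.0341, adjusted 0.309) and −0.51 without them. Gphn had r = −0.75 (exact permutation p = 0.0391, adjusted 0.263; rho −0.61, exact permutation p = 0.167, adjusted 0.467) and only −0.03 without them. The library slope on GC itself had r = 0.70 with the score (exact permutation p = 0.0736; rho 0.75, exact permutation p = 0.0663), and its part in these relations was not tested. Within LPSREPOP and LPSCD there were 4 and 3 mice, too few to give a value for each.

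**Figure D3:**
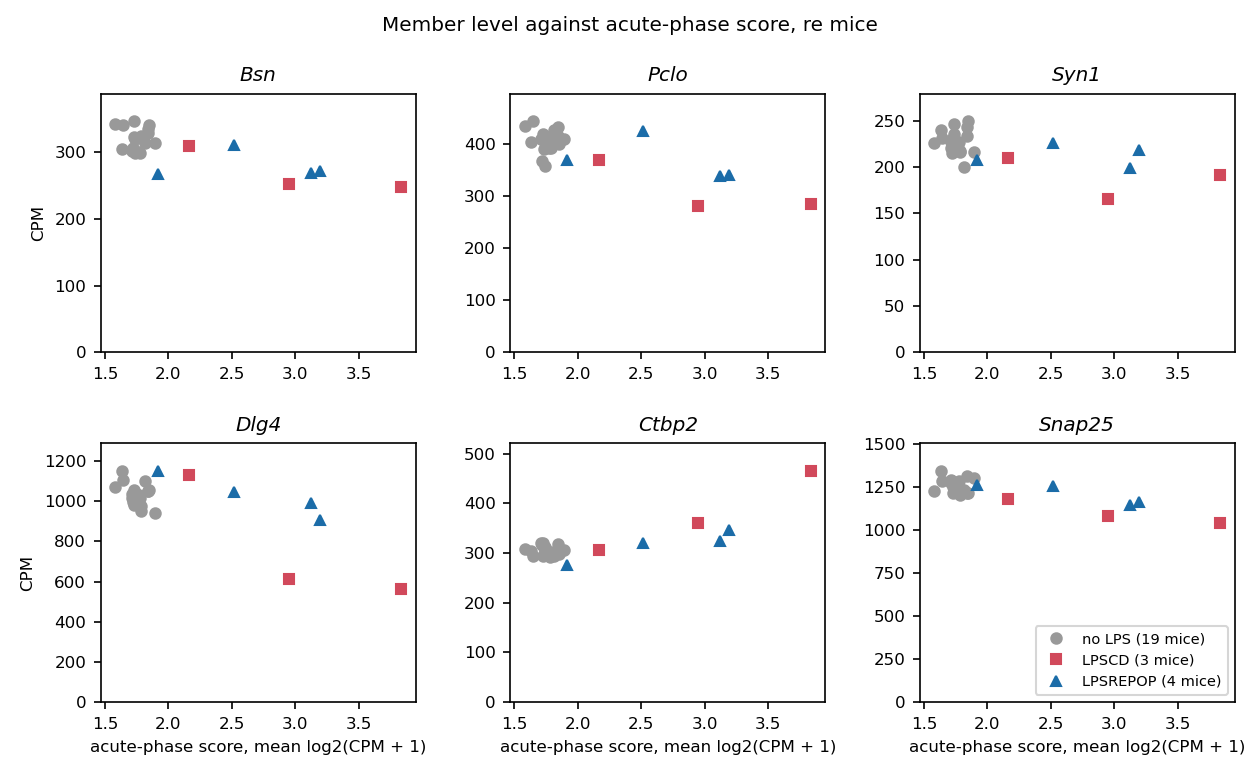
Level in CPM (vertical axis, from 0) of 6 members in the 26 re mice against the acute-phase score (horizontal axis, mean log2(CPM + 1) of 12 genes). The points are single mice: grey without LPS, red squares LPSCD, blue triangles LPSREPOP. Dlg4 at 614 and 564 CPM and Ctbp2 at 465 are in the LPSCD mice with the 2 highest scores of that group.

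Markers of other cells differed as well. In both LPS groups against both unchallenged groups, 10 of 20 microglial markers rose, 3 of 8 cone markers fell (Pde6h, Arr3 and Pde6c) and 1 rose (Opn1mw), and 3 of 10 ganglion cell markers fell (Nefl, Nefm and Nefh). Of 13 amacrine and horizontal markers 2 fell, of 10 rod markers 1 rose and of 10 bipolar markers 0 were called. Of 10 Müller cell and astrocyte markers 3 rose (Vim, Gfap and Dkk3) and 2 fell (Slc1a3 and Rlbp1), and of 6 blood markers 3 fell (Hbb-bs, Hba-a1 and Hbb-bt). Summed cone markers were 732 to 945 CPM in LPSCD and 820 to 1026 in LPSREPOP, against 957 to 1223 in re mice without LPS. Summed ganglion markers were 1115 to 1272 in LPSCD and 1200 to 1340 in LPSREPOP, against 1272 to 1461. Summed pigment epithelium markers were 109 to 256 in LPSCD and 152 to 275 in LPSREPOP, against 269 to 322, but most of that sum was Rlbp1, which is on the Müller list as well (91.2 to 249, 141 to 268 and 255 to 313 CPM). Without Rlbp1 the sums were 7.12 to 17.8, 7.43 to 25.9 and 4.77 to 29.2, which overlapped, and Rpe65 was called higher. No cone or ganglion marker was at 0 in all LPS mice. The library slope on GC was 0.28 to 0.37 in LPSCD, 0.16 to 0.32 in LPSREPOP and 0.12 to 0.26 in re mice without LPS. The part of the markers and of the GC slope in the values of Bsn, Pclo, Syn1, Dlg4 and Ctbp2 was not tested as a cause. Fits with GC-corrected offsets were read for calls only. Bsn was called there in LPSREPOP (−0.28, FDR = 0.00884), beside 3.28% of all genes. Over both LPS groups Bsn (−0.32), Syn1 (−0.28) and Pclo (−0.25) were called, beside 4.77% of all genes.

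Retina with resident and with repopulated microglia was compared under LPS in 2 ways. The first compared levels under LPS alone, and the second set each LPS group against an unchallenged group. For LPSREPOP that group was REPOP60, although the labels give LPSREPOP no length of repopulation. LPSREPOP against LPSCD called 0 of 42 members, as did DESeq2, against a background of 0% of 24500 genes. An unadjusted p under 0.05 was found for 4 members, beside 8.05% of all genes. Grin2b had 41.4, 41.9, 43.3 and 40.8 CPM in LPSREPOP and 39.9, 33.0 and 31.1 in LPSCD (0.27 ± 0.11, FDR = 0.617), Cplx3 282, 295, 259 and 273 against 259, 236 and 231 (0.20 ± 0.08, FDR = 0.617), and Dlg2 stood at 0.19 ± 0.09 (FDR = 0.617). Without LPSCD replicate 1, Dlg4 (0.80, FDR = 0.000959) and Pclo (0.38, FDR = 0.0471) were higher in LPSREPOP, beside 3.2% of all genes called. The difference between the LPS differences, (LPSCD minus CD) minus (LPSREPOP minus REPOP60), called 0 by both tools against a background of 0% of 25712 genes. An unadjusted p under 0.05 was found there for 1 member, beside 5.91% of all genes. Dlg4 stood at −0.49 ± 0.21 (95% interval −0.92 to −0.07, FDR = 0.804), Cplx3 at −0.19 ± 0.11 and Ctbp2 at 0.25 ± 0.14 with the same FDR. Without LPSCD replicate 1, Dlg4 stood at −0.88 ± 0.11 (FDR = 2.247e-07), beside 2.42% of all genes called.

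A wider list of 118 other synaptic genes (119 listed) was read the same way. Of these, 0 were called in lasting depletion and 0 in LPSCD against CD by edgeR. In LPSREPOP against REPOP60, 8 fell and 2 rose, beside 1.05% of all genes called lower and 2.92% called in all. Over both LPS groups 12 fell and 1 rose (Gnb5), beside 2.1% called lower and 4.98% in all. Single genes are given first for LPSREPOP against REPOP60. There Doc2b, a calcium sensor of spontaneous release, fell the most at −0.61 ± 0.06 (FDR = 1.222e-07). Dmd, whose dystrophin products sit in photoreceptor terminals, fell by 0.37 ± 0.07 (−0.37, FDR = 0.0021), and Egflam, the dystroglycan ligand pikachurin of the ribbon synapse, by 0.24 ± 0.06 (−0.24, FDR = 0.0422). Rgs9bp, the anchor of the phototransduction GTPase-activating complex, stood at −0.35 ± 0.06 (FDR = 0.000456), and Cadm2, Cacnb2 and Cadm1 were among the others that fell. In the same comparison Gnb5, a partner of that complex, rose by 0.29 ± 0.07 (FDR = 0.0143), as did the priming factor Unc13a by 0.20 ± 0.05 (FDR = 0.0352). Over both LPS groups the lowest was Dmd at −0.37 ± 0.06 (FDR = 0.000438). Doc2b stood there at −0.35 ± 0.09 (FDR = 0.0233) and Gnb5 at 0.41 ± 0.09 (FDR = 0.00676). At REPOP21 6 fell (Rgs11, Napa, Slc17a7, Slc6a9, Slc32a1 and Unc119) and Ppfia2 rose, against the 1.9% background of that group.

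The largest number of member differences went with the title suffix. In the 58 mice without LPS, with group in the model, 34 of 42 members differed between re and RE, 15 higher and 19 lower in re. The background was 46.4% of 27869 genes called, 23.8% higher and 22.7% lower. Among the 16883 genes kept by edgeR's stricter expression filter, 70.5% were called. By role, 4 vesicle genes were higher and 7 lower, 3 active zone genes higher and 3 lower, 3 scaffolds higher and 3 lower, 2 receptor subunits higher and 5 lower, and 3 adhesion molecules higher and 1 lower. Of the members, 13 had no overlap at all between the 19 re and 39 RE mice (Bsn, Cacna1f, Ctbp2, Grin1, Nlgn2, Nrxn2, Shank1 and Shank3 above, and Cplx4, Gria2, Gria4, Snap25 and Stx3 below), as had 4.03% of all genes tested.

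Nlgn2 ran from 331 through a median of 346 to 379 CPM in re and from 194 through 231 to 275 in RE mice (0.58 ± 0.03, FDR = 4.413e-23). Shank1 ran from 260 through 281 to 317 in re and from 132 through 181 to 251 in RE (0.59 ± 0.05, FDR = 2.41e-16). Stx3 was the other way round, from 571 through 621 to 652 in re and from 752 through 912 to 1038 in RE (−0.55 ± 0.03, FDR = 2.301e-23), and so was Snap25, from 1208 through 1265 to 1346 in re and from 1505 through 1685 to 1892 in RE (−0.40 ± 0.02, FDR = 3.772e-22). Gria2 ran from 150 through 164 to 180 in re and from 181 through 225 to 253 in RE (−0.41 ± 0.03, FDR = 9.065e-18). Of the 42 members, the largest difference in lasting depletion was 0.16 in size (Shank3, −0.16), and the largest with the suffix was 0.59 (Shank1).

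The direction of the suffix difference ran with base composition. Across the 42 members Spearman's rho with transcript GC was 0.81, and across 12318 genes 0.65, given as descriptions over genes that share the same libraries. Of the 21 members of lowest GC (36.8% to 48.9%), 15 were lower in re and 1 higher, with a median of −0.18. Of the 21 of highest GC (49.2% to 62.4%), 14 were higher and 4 lower, with a median of 0.23. The slope of a library's log2 levels on GC was 0.12 to 0.37 per 10% of GC in re and −0.28 to 0.06 in RE mice, which did not overlap. With GC-corrected offsets 30 of 42 members were called, beside 41.2% of all genes, and Snap25 (0.02), Gria2 (0.09), Homer1 (0.12) and Gria3 (0.13) turned from lower to slightly higher in re, of which Snap25 no longer passed.

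The contrast in composition can be seen in the coding sequence. For the 2 members of lowest and the 2 of highest transcript GC, 90 bases from the middle of the longest coding exon are given from the GENCODE M21 transcripts on GRCm38, in the direction of the transcript, with G and C in capitals. Gria2 and Homer1 (43.3% and 48.9% GC in the stretch) were lower in re mice, by −0.41 and −0.38. Shank3 and Nrxn2 (60% and 70%) were higher, by 0.52 and 0.56. The stretch of Gria2 lies in exon 11 at chr3:80707028-80707117 on the minus strand, that of Homer1 in exon 5 at chr13:93355980-93356069 on the plus strand, that of Shank3 in exon 21 at chr15:89548709-89548798 on the plus strand and that of Nrxn2 in exon 23 at chr19:6531661-6531750 on the plus strand.
Gria2: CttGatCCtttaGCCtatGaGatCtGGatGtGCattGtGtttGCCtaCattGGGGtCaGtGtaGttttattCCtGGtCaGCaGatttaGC
Homer1: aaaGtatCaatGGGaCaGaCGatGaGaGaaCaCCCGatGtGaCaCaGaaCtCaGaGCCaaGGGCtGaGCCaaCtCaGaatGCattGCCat
Shank3: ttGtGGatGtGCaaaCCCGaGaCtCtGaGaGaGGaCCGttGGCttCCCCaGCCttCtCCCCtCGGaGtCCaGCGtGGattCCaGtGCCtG
Nrxn2: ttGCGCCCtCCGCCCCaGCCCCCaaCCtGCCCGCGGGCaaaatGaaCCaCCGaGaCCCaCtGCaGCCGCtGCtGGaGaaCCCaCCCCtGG

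**Figure D4:**
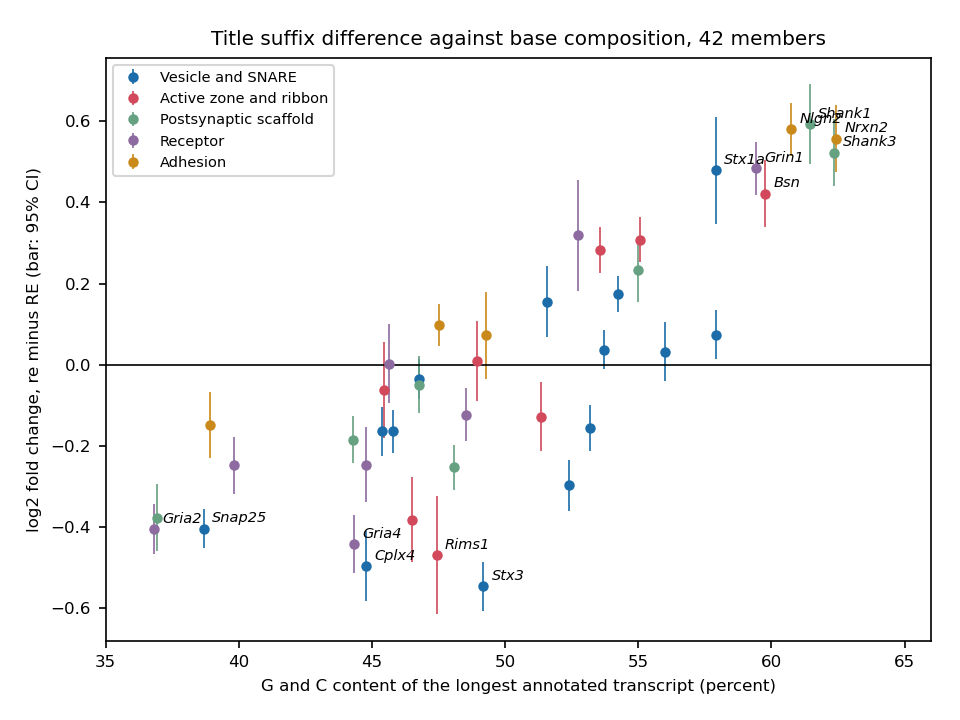
Fitted log2 fold change of re against RE mice without LPS (vertical axis, bars for the 95% confidence interval) against the share of G and C in the longest annotated transcript in percent (horizontal axis), 1 point for each of the 42 members, coloured by role. Members above 57% GC lie above 0 and those below 45% GC lie below it, with Spearman's rho 0.81.

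The genes outside the list whose levels most resembled those of Snap25 over the 39 RE mice were Snrpd1 (Spearman's rho 0.87), Chn1os3 (0.87) and Tceal9 (0.86), with transcript GC of 43.1%, 46.2% and 40.7%. These are descriptions across mice of all 13 groups and share the library slope on GC.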

How the data were processed

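Total RNA of whole retina was sequenced from 65 mice in 16 groups. The authors deposited raw gene counts and FPKM (per the labels, with HISAT2, HTSeq and StringTie on mm10, versions not given in the sources used here). FPKM served only for levels between genes, and all tests used the counts. Counts were tested with edgeR 4.0.16 (TMM, quasi-likelihood F test) in R 4.3.3, with the title suffix as covariate, keeping a gene once any group compared had it (count of 1 or higher) in a fraction 0.5 of its mice. A gene was called at an FDR (Benjamini-Hochberg) under 0.05, where the study also asked for a fold threshold. Errors of fold changes are SE. Depth of 5106429 to 8760443 reads puts a floor of 3 counts at 0.342 to 0.587 CPM. Labels do not say whether mice were littermates, so p-values measure the spread between these samples.

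The text names called members, the 3 of smallest FDR in each comparison, and 14 genes with their group levels in each suffix. The members and gene lists were chosen with earlier results of these data known. The comparison of both LPS groups, the relation to the acute-phase score and GC-corrected offsets (per library, a natural spline with 4 degrees of freedom on transcript GC) were added after seeing the data. Alternatives included DESeq2 1.42.0, other filters and normalizations, 1 suffix alone, a replicate block and each mouse left out. On simulated data with a log2 change of 0.5, the test recovered 53 of 67 changed genes for depletion against CD, 16 of 67 for LPSCD against CD and 48 of 67 for LPSREPOP against REPOP60 (20945, 21277 and 21239 genes), with 4, 5 and 10 false calls. No 2 libraries of a group agreed within sampling noise (smallest chi-square per degree of freedom 1.364). Where members overlap other genes (protein-coding ones being Araf and Timp1 for Syn1, Timp4 and Gm17482 for Syn2, Fgfr2 for Ctbp2, Gpr152 for Cabp4, Slc22a12 for Nrxn2, Gm5136 for Syt1 and 1700008O03Rik for Shank1), reads of the pair may not be told apart. One gene of the wider synaptic list is not reported here by name.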

Additional observations from a re-analysis of the deposited data

Results flagged for a closer look

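A mouse that stood apart from the rest of its group was looked for in the groups with more than 3 mice. LPSCD and DEP5, with 3 mice each, were not searched. The search covered 21 members in 294 member and group pairs, by the gap to the nearest mouse over the range of the group. There were 24 such values, where chance gives about 5% of pairs, and 19 of them were on the one mouse of its group whose title has the other suffix. In DEP7 that mouse, replicate 1, had Snap25 at 1235.7 CPM and Cplx4 at 463.17 on the low side, and Nlgn2 at 331.27 and Shank3 at 44.331 on the high side. In DEP10 it had Grin1 at 143.19 (high) and Dlg2 at 196.27 (low), and in DEP14 Shank3 at 48.45 (high). In REPOP3 it had Grin1 at 155.55 and Nlgn2 at 371.48, both high. In REPOP10 it had Snap25 at 1264.7, Vamp2 at 980.81 and Cplx4 at 459.83 on the low side, and Grin1 at 154.75 and Nlgn2 at 344.81 on the high side. In REPOP14 it had Vamp2 at 998.57 (low). In REPOP21 it had Cacna1f at 643.82 and Nlgn2 at 348.72 (high), and Gria2 at 169.09 and Grin2a at 22.214 (low).

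The other 5 values had no link to the suffix. Syp stood at 1072.6 CPM in LPSREPOP replicate 2, above the next mouse at 1019.6. Bsn stood at 309.48 in LPSREPOP replicate 1, above the next at 271.06, and Gria2 at 170.35 in the same mouse, above 151.96. Glra1 stood at 8.6191 in REPOP3 replicate 4, below the next at 19.845, and Nlgn3 at 19.005 in REPOP10 replicate 3, above 16.746.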

How the results depend on the processing

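Outside the fits with a mouse left out, 65 of 83 alternative counts of called members stayed within 1.5 times the reported one and 18 moved. The cause was not tested. With re mice alone, depletion gave 1 call (Syp, with 0.241% of all genes). A fit of all 16 groups gave 5 for LPSCD against CD (6.43% of all genes) and 0 for LPSREPOP against REPOP60 (1.47%). With no gene filter there was 1 for LPSCD against CD (Dlg4, 2.68% of all genes), 3 for LPSREPOP against REPOP60 (Bsn, Pclo and Stx3, 4.29%), 8 over the time course (4.42% at REPOP21), 1 for the difference between the LPS differences (Dlg4, 0.474%) and 6 for both LPS groups (6.14%). DESeq2 gave 2 for LPSREPOP against REPOP60 (2.08%), 2 over the time course (2.18% at REPOP21) and 5 for both LPS groups (4.53%). The study's rule (FDR under 0.01 and a log2 fold change above 1 in size) gave 0 for LPSREPOP against REPOP60, 0 for the suffix and 0 for both LPS groups, which gave 5 without a suffix term (8.47%).

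Replicate numbers did not pair the mice: correlations of same-numbered deviations were all over 0.1 in 8 of 18 group pairs, and in 0 of 18 once the suffix was removed (−0.585 to 0.579). With the replicate number as a block, 4 members were called for LPSREPOP against REPOP60 (Bsn, Pclo, Stx3 and Syt1, with 4.62% of all genes). Over the time course 4 pairs were called, Bsn and Shank1 at DEP10 (0.585%) and Cplx4 and Pclo at REPOP21 (2.62%). The block gave 0 for both LPS groups (1.49%) and 24 for the suffix (21.8%). In the remaining comparisons the block gave 0 calls.

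With each mouse left out in turn (153 fits, 138 of them the same), calls ran from 0 to 0 in depletion, 0 to 6 in LPSCD against CD, 0 to 2 in LPSREPOP against LPSCD, 0 to 3 in LPSREPOP against REPOP60, 0 to 0 in repopulated against depleted retina, 0 to 4 over the time course, 0 to 1 for the difference between the LPS differences and 1 to 8 for both LPS groups. Of 686 alternative values for single genes, 619 kept their direction and side of the threshold, 39 lost the call, 23 gained one and 5 reversed: Grin2a in repopulated against depleted re mice (−0.04105), and Snap25 (0.022), Gria2 (0.092), Homer1 (0.12) and Gria3 (0.13) for the suffix with GC-corrected offsets.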
